A study of Mus musculus with 7 samples.

Results

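Lipoprotein lipase, its angiopoietin-like inhibitors and relatives, the proteins that fold and anchor the enzyme, and a receptor for the particles it acts on were followed in mouse left ventricle. The 8 genes *Angptl1*, *Angptl2*, *Angptl4*, *Angptl7*, *Lpl*, *Gpihbp1*, *Lmf1* and *Vldlr* were selected by name from the 20927 genes of the count table, with results of the contrast between genotypes known. All 8 passed the filter (10 or more counts in 3 or more libraries), as did 13894 genes in all. Because the choice drew on this contrast, the differences between genotypes in these 8 genes are given as a description.

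RNA was sequenced from the left ventricle of 3 wild-type (WT) mice, numbered 1, 3 and 4, and of 4 mice homozygous for titin A178D, numbered 1 to 4, with strain C57BL/6J on the labels of both groups. The A178D allele changes an alanine in the Z-disc part of titin to aspartate and carries a silent change that creates a restriction site for genotyping. It was made with CRISPR-Cas9 in C57BL/6N embryonic stem cells, and mice were backcrossed to C57BL/6J before WT and homozygous littermates were bred. The age and sex of these 7 mice are not given in the sources used here. *Ddx3y*, a gene of the Y chromosome, was at 75.2 to 118.8 CPM (counts scaled for depth by TMM to a fixed library size) in all 7 hearts. Libraries held between 33080675 counts (A178D replicate 4) and 54245530 counts (WT replicate 3). Among counts from 1 to 20, between 17.6 and 20.3% were odd, so fewer fragments than counts stand behind a low value. *Ttn* itself was at 7245, 6247 and 6486 CPM in WT replicates 1, 3 and 4 and at 5361, 6173, 6490 and 4087 CPM in A178D replicates 1 to 4, which does not check the labels, since the allele is a substitution. WT replicate 4 stood apart from the other WT hearts in *Angptl4* and in *Ucp3*, and values with and without it are given there.

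Lipoprotein lipase is made by heart muscle cells and adipocytes, carried by *Gpihbp1* to the inner face of capillaries, and there releases fatty acids from the triglyceride of circulating lipoproteins, a main fuel of the heart. *Angptl4* inactivates the enzyme locally and is induced by fasting, fatty acids, glucocorticoids and low oxygen, and the peroxisome proliferator activated receptors (PPARs) mediate much of this control. The other angiopoietin-like proteins are secreted glycoproteins, several of which act on vessels, matrix and inflammation and not on the lipase.

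The levels of the 8 genes spanned a wide range when compared per length (CPM per kilobase of exon union). *Lpl* had the highest level, 493.7 over all 7 hearts, at percentile 99.4 of the genes tested. *Vldlr* followed at 58.8, *Gpihbp1* at 31.0 and *Angptl2* at 24.5, all at percentile 88 or above. The per-heart levels per length of these 4 genes did not overlap except between *Gpihbp1* (26.2 to 36.6) and *Angptl2* (21.2 to 28.5). *Angptl4* at 4.16, *Lmf1* at 2.45, *Angptl1* at 1.32 and *Angptl7* at 0.886 were far lower. *Angptl7* lay at percentile 23. These 4 ranges overlapped in part, as *Angptl4* ran from 1.09 to 6.89 per kilobase while *Lmf1* ran from 2.17 to 2.75. With the length of the longest transcript in place of the exon union, *Lmf1* passed *Angptl4*.

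In the test over all genes (the quasi-likelihood test of edgeR, adjusted by Benjamini-Hochberg, called at an adjusted p under 0.05), 1 of the 8 genes, *Angptl7*, was called lower in A178D hearts, as were 1.31% of all genes tested. None of the 8 was called higher by edgeR or by DESeq2, as were 1.04% of all genes tested by edgeR, while limma-voom called 1 higher. At an unadjusted p under 0.05, 2 of the 8 were higher and 3 lower, a threshold that 2326 of the 13894 genes tested passed in either direction. All A178D hearts lay above all WT hearts in 1 of the 8, *Lmf1*, as in 7.61% of genes tested, and below all WT hearts in 2, *Angptl2* and *Angptl7*, as in 8.52% of genes tested. The nearest genes on either side of the threshold over all genes were *Plekhm2* (adjusted p = 0.0499) and *Hey2* (adjusted p = 0.05, not called). *Angptl7* ranked 101 by p, between *Ablim3* (log2 fold change -0.41) and *Bdh1* (0.37), and the member with the next smallest adjusted p was *Angptl4*, outside the threshold.

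**Figure D1:**
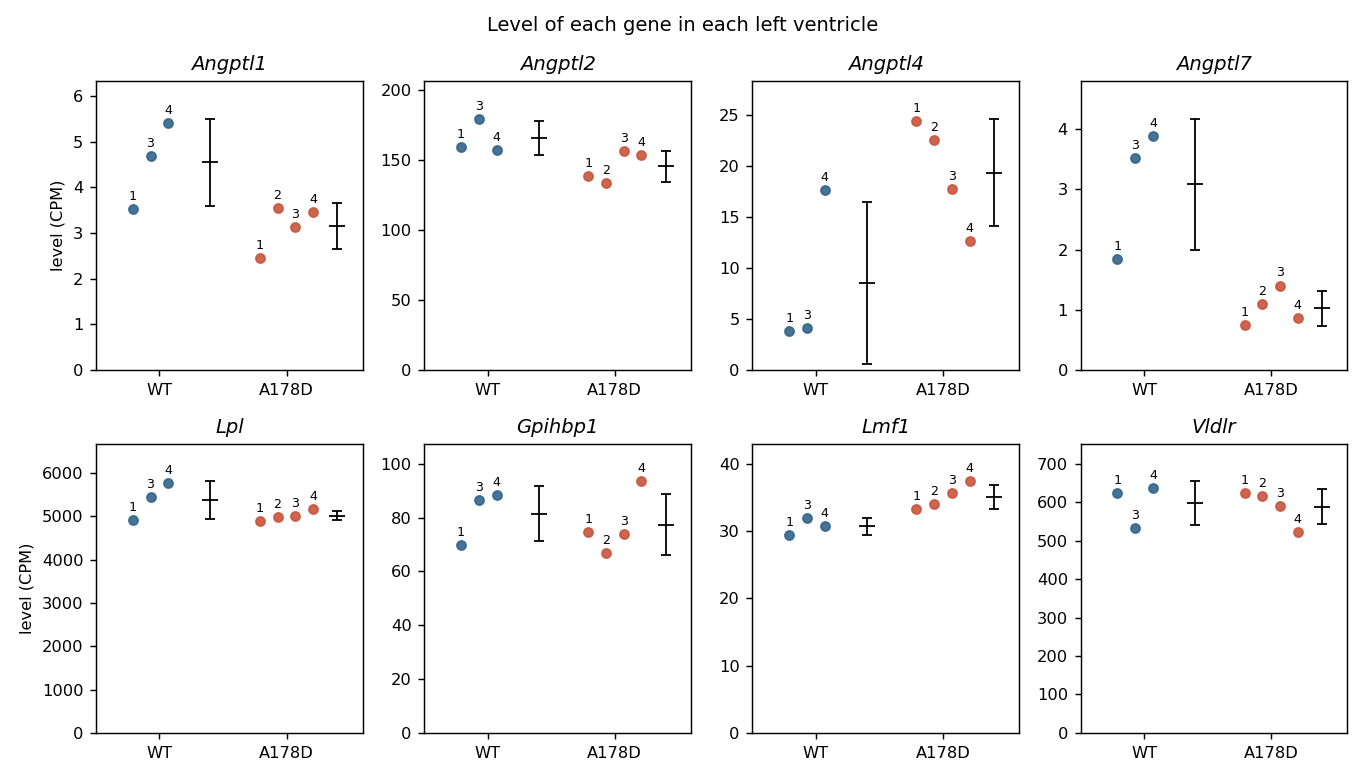
Level of each gene in CPM (vertical axes, each starting at 0) in the 3 WT (blue) and 4 A178D (red) left ventricles, with replicate numbers above the points and black bars for the mean and SD of each group. *Angptl4* was near 4 CPM in WT replicates 1 and 3 and at 17.7 CPM in WT replicate 4, within the range of the A178D hearts, and *Angptl7* was lower in each A178D heart than in each WT heart.

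*Angptl4* (ENSMUSG00000002289), the local inhibitor of the lipase, lies on the minus strand at chr17:33773750-33781830 (GRCm38). Its level was 3.86, 4.09 and 17.7 CPM in WT replicates 1, 3 and 4, and 24.4, 22.6, 17.8 and 12.7 CPM in A178D replicates 1 to 4. WT replicates 1 and 3 were below every A178D heart, whereas WT replicate 4 lay above A178D replicate 4 and close to A178D replicate 3, so the groups overlapped. The mean was 8.53 ± 7.89 CPM in WT (SD, n = 3) and 19.4 ± 5.27 CPM in A178D (SD, n = 4). A178D over WT gave a log2 fold change of 1.21 (standard error 0.42), with a 95% interval from 0.31 to 2.11, and the adjusted p was 0.162 (quasi-likelihood test of edgeR, adjusted by Benjamini-Hochberg).

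The value for *Angptl4* rested on WT replicate 4. Without that heart the log2 fold change was 2.29 and the edgeR adjusted p was 0.00215, within a range of 0.86 to 2.29 and of 0.00215 to 0.43 over the 7 fits without 1 heart each. Limma-voom with all hearts gave 1.65 with an adjusted p of 0.0355. Set against the enzyme it inhibits, *Angptl4* per length was 0.232, 0.222 and 0.904 per 100 of *Lpl* in WT replicates 1, 3 and 4, and 1.48, 1.34, 1.05 and 0.725 per 100 in A178D replicates 1 to 4. The order of hearts in this ratio was close to that of *Angptl4* alone, and WT replicate 4 again lay among the A178D hearts.

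*Angptl7* (ENSMUSG00000028989), a secreted family member known from the eye and from matrix-rich tissues, lies on the minus strand at chr4:148495183-148500460. It was at 1.85, 3.52 and 3.89 CPM in WT replicates 1, 3 and 4, and at 0.744, 1.10, 1.41 and 0.865 CPM in A178D replicates 1 to 4. Every A178D heart was below every WT heart, and the smallest gap was between WT replicate 1 and A178D replicate 3. These levels rest on 28 to 192 counts per library, the fewest of the 8 genes. The log2 fold change was -1.57 (standard error 0.29, 95% interval -2.20 to -0.94), a level in A178D of 0.337 times that in WT, with an edgeR adjusted p of 0.0153. When hearts were left out 1 at a time *Angptl7* was called in 4 of 7 fits, with a log2 fold change from -1.83 to -1.37 and an adjusted p from 0.00201 to 0.101, and the call was lost in the absence of WT replicates 3 or 4 or of A178D replicate 1.

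*Angptl2* (ENSMUSG00000004105), a secreted protein linked to inflammation and vessel remodelling, lies on the plus strand at chr2:33216069-33247717 and was the most abundant of the 4 angiopoietin-like genes per length. Its level was 159.4, 179.2 and 157.2 CPM in WT replicates 1, 3 and 4, and 138.4, 133.2, 156.0 and 153.4 CPM in A178D replicates 1 to 4. All A178D hearts were below all WT hearts, but A178D replicate 3 came within about 1 CPM of WT replicate 4. Between genotypes the log2 fold change came to -0.19, standard error 0.08 (95% interval -0.36 to -0.02, edgeR adjusted p = 0.25).

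*Angptl1* (ENSMUSG00000033544), a secreted family member, lies on the plus strand at chr1:156838562-156861078. It was at 3.52, 4.70 and 5.41 CPM in WT replicates 1, 3 and 4, and at 2.45, 3.55, 3.14 and 3.46 CPM in A178D replicates 1 to 4. The groups overlapped through A178D replicate 2, which was level with WT replicate 1, and the other A178D hearts were below all WT hearts. This gave a log2 fold change of -0.52 and standard error 0.19 (95% interval -0.93 to -0.12, edgeR adjusted p = 0.181).

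*Lpl* (ENSMUSG00000015568), the lipase itself, lies on the plus strand at chr8:68880491-68907448. Its level was 4922, 5441 and 5773 CPM in WT replicates 1, 3 and 4, and 4898, 4990, 5020 and 5169 CPM in A178D replicates 1 to 4. WT replicates 3 and 4 were above every A178D heart, while WT replicate 1 lay within the A178D range. The spread was 429 CPM in WT and 113 CPM in A178D (SD, n = 3 and n = 4). This gave a log2 fold change of -0.10 and standard error 0.07 (95% interval -0.24 to 0.04, edgeR adjusted p = 0.485).

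*Gpihbp1* (ENSMUSG00000022579), the anchor that carries the lipase across capillary endothelium, lies on the plus strand at chr15:75596628-75599481. It ranged from 69.7 to 88.3 CPM in WT and from 67.0 to 93.5 CPM in A178D hearts, so that each group spanned most of the other. Its log2 fold change of -0.08 had a standard error of 0.11 (95% interval -0.32 to 0.16). Per length there were 6.20 ± 0.36 of *Gpihbp1* for 100 of *Lpl* in WT and 6.31 ± 0.80 in A178D hearts (SD, n = 3 and n = 4).

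*Lmf1* (ENSMUSG00000002279), which matures the lipase in the endoplasmic reticulum, lies on the plus strand at chr17:25579085-25662826. It was at 29.5, 32.0 and 30.8 CPM in WT replicates 1, 3 and 4, and at 33.3, 34.0, 35.6 and 37.4 CPM in A178D replicates 1 to 4. Every A178D heart was above every WT heart, by a small margin between A178D replicate 1 and WT replicate 3. Between genotypes the log2 fold change came to 0.19, standard error 0.08 (95% interval 0.02 to 0.36, edgeR adjusted p = 0.245). Per 100 of *Lpl*, *Lmf1* per length was 0.462, 0.454 and 0.411 in WT replicates 1, 3 and 4. In A178D replicates 1 to 4 it was 0.524, 0.526, 0.547 and 0.558, so that the groups did not overlap in this ratio.

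*Vldlr* (ENSMUSG00000024924), the receptor for very low density lipoprotein, lies on the plus strand at chr19:27216484-27254231. It ranged from 533 to 637 CPM in WT and from 523 to 625 CPM in A178D hearts, and WT replicate 3 and A178D replicate 4 were the lowest hearts of their groups. A log2 fold change of -0.02 was estimated (standard error 0.08, 95% interval -0.20 to 0.16), and its sign turned among the fits that each left out 1 heart (-0.10 to 0.03).

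**Figure D2:**
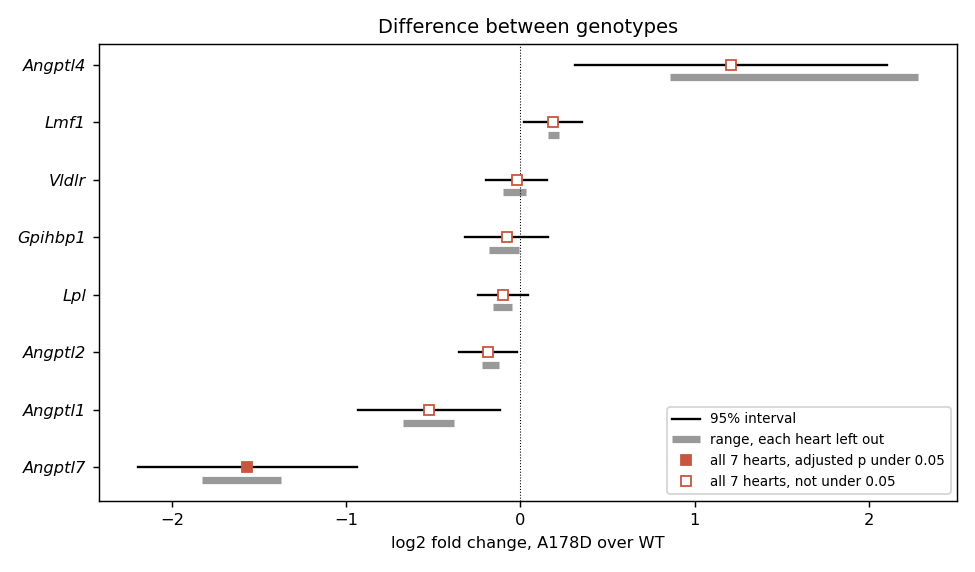
Log2 fold change of A178D over WT for the 8 genes (squares, filled where the edgeR adjusted p was under 0.05), with the 95% interval (black line) and the range of the estimate over the 7 fits without 1 heart each (grey bar). The estimate for *Angptl4* reached 2.29 without WT replicate 4, while *Angptl7* stayed between -1.83 and -1.37.

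Of family members outside the 8, *Angptl6* was scarce, at 2.85 ± 0.15 CPM in WT and 3.38 ± 0.55 CPM in A178D hearts, and its groups overlapped. *Angptl8*, which also acts on the lipase, did not pass the filter, with 0.121 ± 0.151 CPM in WT and 0.146 ± 0.050 CPM in A178D hearts (SD, n = 3 and n = 4 throughout).

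Among 26 further partners of the lipase (other inhibitors, apolipoproteins, related lipases, maturation factors, convertases and heparan sulphate carriers) 18 were tested, with a median log2 fold change of -0.02 beside 0.002 over all genes tested. *Apoe* and *Gpc1* had the highest levels per length in this list. *Apoc3*, *Apoc4* and *Apoa4* had no counts. *Sort1*, whose product sortilin sorts lipoprotein lipase and other cargo to lysosomes, was the 1 gene of the list that was called, and it was lower. It was at 67.2, 65.5 and 62.6 CPM in WT replicates 1, 3 and 4, and at 31.0, 35.5, 48.5 and 30.5 CPM in A178D replicates 1 to 4. All A178D hearts were below all WT hearts, with A178D replicate 3 nearest to them. *Sort1* had a log2 fold change of -0.84 (standard error 0.13, edgeR adjusted p = 0.00598) and stayed called whichever heart was left out (adjusted p from 0.000351 to 0.0499).

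Of 15 genes of the low density lipoprotein receptor family and its regulators 14 were tested, with a median log2 fold change of 0.01. *Lrpap1* and *Lrp10* had the highest levels per length. *Lrp8*, a receptor for reelin and apolipoprotein E, was called higher, from 0.362 ± 0.235 CPM in WT to 1.42 ± 0.26 CPM in A178D (SD, n = 3 and n = 4), with a log2 fold change of 1.92, a standard error of 0.43 and an edgeR adjusted p of 0.0332. Its level in WT replicate 4 rests on 4 counts, and the call was kept without WT replicate 1 and lost without any other heart. *Reln*, which encodes reelin, the ligand of *Lrp8* and *Vldlr*, was called lower, from 12.4 ± 0.40 to 7.47 ± 1.88 CPM (log2 fold change -0.72, standard error 0.16, edgeR adjusted p = 0.033), and lost its call without WT replicates 3 or 4 or A178D replicates 1 or 4. All 4 A178D hearts were above all WT hearts for *Lrp8* and below them for *Reln*.

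Genes that take up, store and release the fatty acids set free by the lipase were listed next. Of 30 tested in a list of 31, 23 were above 0 on the log2 scale, as were 7018 of all 13894 genes tested. The median fold change was 0.11 beside 0.002 over all genes tested. By edgeR, DESeq2 and limma-voom alike, 3 were called higher and 0 lower, where edgeR called 1.04% of all genes tested higher and 1.31% lower. At an unadjusted p under 0.05, which 2326 of the 13894 genes tested passed, 8 were higher and 1 lower. *Fabp3* and *Cd36*, which carry fatty acids, had the highest levels per length.

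The 3 called genes were *Plin2*, *Plin5* and *Cidea*. Of their relatives in the list, *Plin3* (log2 fold change 0.06) and *Cideb* (0.57) overlapped between the groups and were not called. *Plin4* was not called and was lower in every A178D heart (log2 fold change -0.28, standard error 0.10, edgeR adjusted p = 0.176). *Plin2* was at 64.3, 57.0 and 74.1 CPM in WT replicates 1, 3 and 4, and at 89.6, 91.9, 95.7 and 85.8 CPM in A178D replicates 1 to 4. *Plin5*, the perilipin of oxidative tissues, was at 164.3, 131.8 and 166.3 CPM in these WT hearts and at 212.8, 204.0, 201.9 and 222.7 CPM in the A178D hearts. *Cidea*, a protein of droplet growth, was at 32.6, 26.6 and 31.0 CPM in WT and at 40.0, 39.3, 41.6 and 41.4 CPM in A178D hearts. In all 3 genes WT replicate 3 was the lowest heart and no A178D heart reached down to the WT range. The log2 fold changes were 0.48 for *Plin2*, 0.45 for *Plin5* and 0.43 for *Cidea*, with standard errors of 0.09, 0.09 and 0.08 and edgeR adjusted p-values of 0.0144, 0.0162 and 0.0177. The calls were lost without WT replicate 3 in all 3, also without A178D replicate 1 in *Plin5*, and also without WT replicate 4, A178D replicate 1 or A178D replicate 3 in *Cidea*.

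*Angptl4* is a known target of the PPARs, and other such targets were listed beside it. Of 26 tested among 30, 24 lay above 0 and 2 below on the log2 scale, and the median was 0.15. Of all 13894 genes tested, 7018 lay above 0 and 6876 below. At an unadjusted p under 0.05, which 2326 of the 13894 genes tested passed, 9 were higher and 1 lower. DESeq2 and limma-voom each called 3 higher and 1 lower, where DESeq2 called 306 higher and 380 lower over all genes tested. By edgeR 2 were called higher and 1 lower, where it called 1.04% of all genes tested higher and 1.31% lower. *Ehhadh*, an enzyme of peroxisomal fatty acid oxidation, was called higher along with *Plin2*, and *Cyp4b1*, a cytochrome P450 that hydroxylates fatty acids, was called lower. *Fabp3* and *Acaa2* had the highest levels per length in this list. *Ehhadh* was at 16.6, 15.7 and 21.98 CPM in WT replicates 1, 3 and 4, and at 31.5, 29.4, 31.3 and 27.9 CPM in A178D replicates 1 to 4. All A178D hearts were above all WT hearts, and WT replicate 4 was the highest of the WT hearts. The log2 fold change of *Ehhadh* was 0.73 (standard error 0.11, edgeR adjusted p = 0.00587), called whichever heart was left out. *Cyp4b1* had -0.40 (standard error 0.09, edgeR adjusted p = 0.0339) and kept its call without WT replicate 1 or A178D replicate 4 alone.

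The PPAR targets differed among the WT hearts. In WT replicate 4, 22 of the 26 tested targets were at their highest WT level, against 33.5% of all genes tested. In WT replicate 3, 23 of the 26 were at their lowest WT level, against 4320 of all 13894 genes tested. Within the range of the A178D hearts lay 8 of the 26 in WT replicate 1, 1 in WT replicate 3 and 15 in WT replicate 4 (30.8, 3.85 and 57.7%), where all genes tested had 49.4, 52.3 and 50.5%. The median deviation of the list from the mean of the 7 hearts, on the log2 scale, was -0.07, -0.31 and 0.08 in WT replicates 1, 3 and 4 and between 0.03 and 0.12 in the A178D hearts. For *Angptl4* the deviations were -1.62, -1.54 and 0.56 in the WT hearts, and 1.03, 0.92, 0.57 and 0.08 in A178D replicates 1 to 4. The heart farthest from the other WT hearts was thus replicate 3 in the median of the list and replicate 4 in *Angptl4*.

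**Figure D3:**
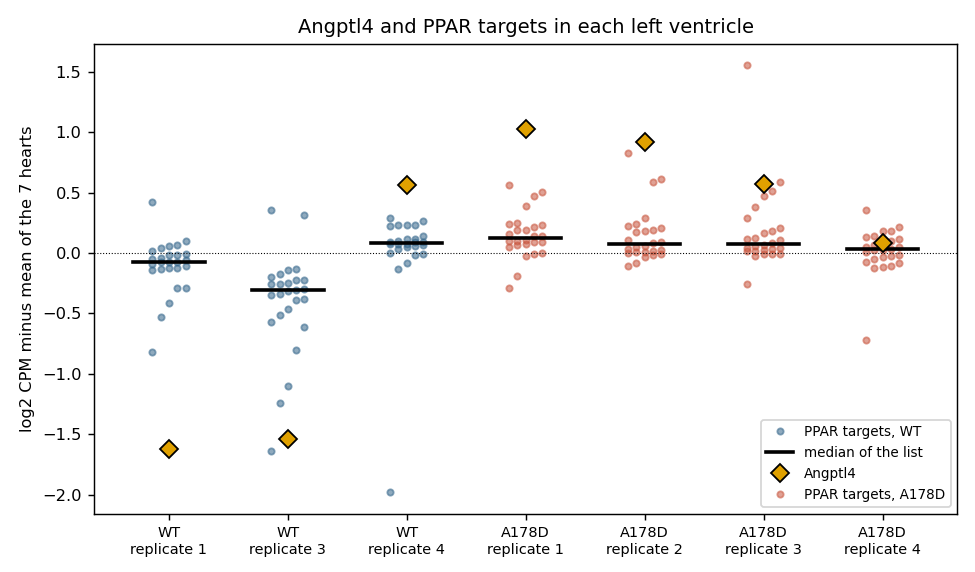
Log2 CPM of *Angptl4* (diamonds) and of the 26 tested PPAR targets (points, blue in WT and red in A178D) in each left ventricle, minus the mean of the 7 hearts, with black bars for the median of the list. WT replicate 4 had a median of 0.08, near the A178D hearts, while WT replicate 3 had the lowest, -0.31.

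*Ucp3*, a mitochondrial carrier induced by fasting and fatty acids, had the pattern over the 7 hearts most like that of *Angptl4* among 12211 genes that averaged 50 counts or more (Pearson r = 0.98 of log2 CPM, n = 7 hearts, and 0.96 after the genotype means were removed). It was at 62.3, 51.1 and 129.1 CPM in WT replicates 1, 3 and 4, and at 156, 165, 152.4 and 119.1 CPM in A178D replicates 1 to 4. Here too WT replicate 4 lay among the A178D hearts and WT replicates 1 and 3 below them. Its log2 fold change was 0.88 with an edgeR adjusted p of 0.0717, and without WT replicate 4 it was 1.39 with an adjusted p of 0.00215, the lowest of a range of 0.00215 to 0.257 over the fits without 1 heart each. With all hearts, *Ucp3* was called in 3 of 10 other settings, limma-voom among them (log2 fold change 1.00). *Pdk4*, which limits glucose oxidation, was lowest in WT replicate 3, at 346.2, 136.2 and 497.4 CPM in WT and 623.6, 647.7, 637.3 and 402.9 CPM in A178D hearts. Its log2 fold change was 0.82 (edgeR adjusted p = 0.183) and ran from 0.46 without WT replicate 3 (adjusted p = 0.325) to 1.261 without WT replicate 4 (adjusted p = 0.0903). What sets WT replicate 4 apart in *Angptl4* and *Ucp3* was not tested.

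The receptors and cofactors that act on these genes did not share a direction. Of 16 listed and tested, 7 were above 0 and 9 below, with a median log2 fold change of -0.05, and *Esrra* and *Rxrg* had the highest levels per length. By edgeR and limma-voom alike, 1 was called higher and 1 lower. DESeq2 called 1 higher and 3 lower, beside 306 and 380 over all genes tested. At an unadjusted p under 0.05, which 2326 of the 13894 genes tested passed, 1 was higher and 3 lower. *Ppara*, the PPAR of heart and liver, was called lower, at 147.6, 136.5 and 152.2 CPM in WT replicates 1, 3 and 4 and at 104.7, 117.2, 115.2 and 109.3 CPM in A178D replicates 1 to 4. *Srebf1*, the sterol and lipid synthesis factor, was called higher, from 50.6 ± 2.09 to 74.8 ± 7.96 CPM (SD, n = 3 and n = 4). In both genes the groups did not overlap. The log2 fold changes were -0.38 (standard error 0.07, edgeR adjusted p = 0.0144) for *Ppara* and 0.56 (standard error 0.09, edgeR adjusted p = 0.00601) for *Srebf1*, and *Ppara* lost its call without WT replicate 4 or A178D replicate 1.

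*Angptl4* is also induced by glucocorticoids and by low oxygen, and genes of both responses were listed. Of 13 genes of the glucocorticoid response, all tested, 6 were above 0 and 7 below, with a median log2 fold change of -0.19. At an unadjusted p under 0.05, 4 were higher and 5 lower, 9 of 13 where all genes had 2326 of 13894. *Pdk4* and *Mt1* had the highest levels per length. *Zbtb16*, a zinc finger factor induced by glucocorticoids, was called lower, at 52.2, 79.4 and 89.1 CPM in WT replicates 1, 3 and 4 and at 27.1, 31.2, 28.7 and 39.6 CPM in A178D replicates 1 to 4. Every A178D heart was below every WT heart, and the log2 fold change was -1.22 (standard error 0.16, edgeR adjusted p = 0.00224, called whichever heart was left out). *Cdkn1a*, the cell cycle inhibitor p21, and *Lcn2*, an iron-trafficking lipocalin of inflammation, were called higher, with log2 fold changes of 0.54 and 0.93, standard errors of 0.10 and 0.22 and edgeR adjusted p-values of 0.0146 and 0.0437. *Cdkn1a* lost its call without WT replicate 3, WT replicate 4 or A178D replicate 1, and *Lcn2* kept its call only without A178D replicate 2 or A178D replicate 4 and was not called by limma-voom. The summed level of this list was 916, 873 and 1233 CPM in WT replicates 1, 3 and 4 and 1064 to 1279 CPM in A178D hearts, with WT replicate 4 among the A178D hearts. *Pdk4* was its most abundant gene, and without it the sum was 570, 737 and 735 CPM in WT replicates 1, 3 and 4 and 508 to 661 CPM in A178D hearts, so that WT replicates 3 and 4 were above every A178D heart. The part of this response in the value of *Angptl4* was not tested.

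Of 13 genes of the hypoxia response, all tested, 6 were above 0 and 7 below, with a median log2 fold change of -0.002. None was called by edgeR or limma-voom, while DESeq2 called 1 higher and 1 lower, beside 306 and 380 over all genes tested. At an unadjusted p under 0.05, which 2326 of the 13894 genes tested passed, 2 were higher and 2 lower. *Ldha* and *Bnip3* had the highest levels per length. The list sum was 1743 to 1796 CPM in WT and 1716 to 1860 CPM in A178D hearts.

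The angiopoietins, to which the family is related, and the receptors of both families gave no call in 11 genes tested by edgeR, DESeq2 or limma-voom, with 0 higher and 1 lower at an unadjusted p under 0.05 and a median log2 fold change of 0.10. *Itgb1* and *Tie1* had the highest levels per length. The 95% interval of the log2 fold change was -0.25 to 0.07 for *Itgb1* and -0.05 to 0.25 for *Tie1*.

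*Angptl1*, *Angptl2* and *Angptl7* share a position inside another gene. Each lies within a single intron of a longer gene on the opposite strand, *Angptl1* in *Ralgps2* (chr1:156804166-156939626), *Angptl2* in *Ralgps1* (chr2:33133417-33371486) and *Angptl7* in *Mtor* (chr4:148448611-148557683), and none shares an exonic base with that gene. *Angptl1* also shares 465 exonic bases with Gm37802 on the other strand. The notes on processing do not state whether counting used the strand, so reads from antisense or retained intronic RNA at these genes cannot be told apart from their own. *Angptl4*, *Lpl*, *Gpihbp1*, *Lmf1* and *Vldlr* overlap no other annotated gene.

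**Figure D4:**
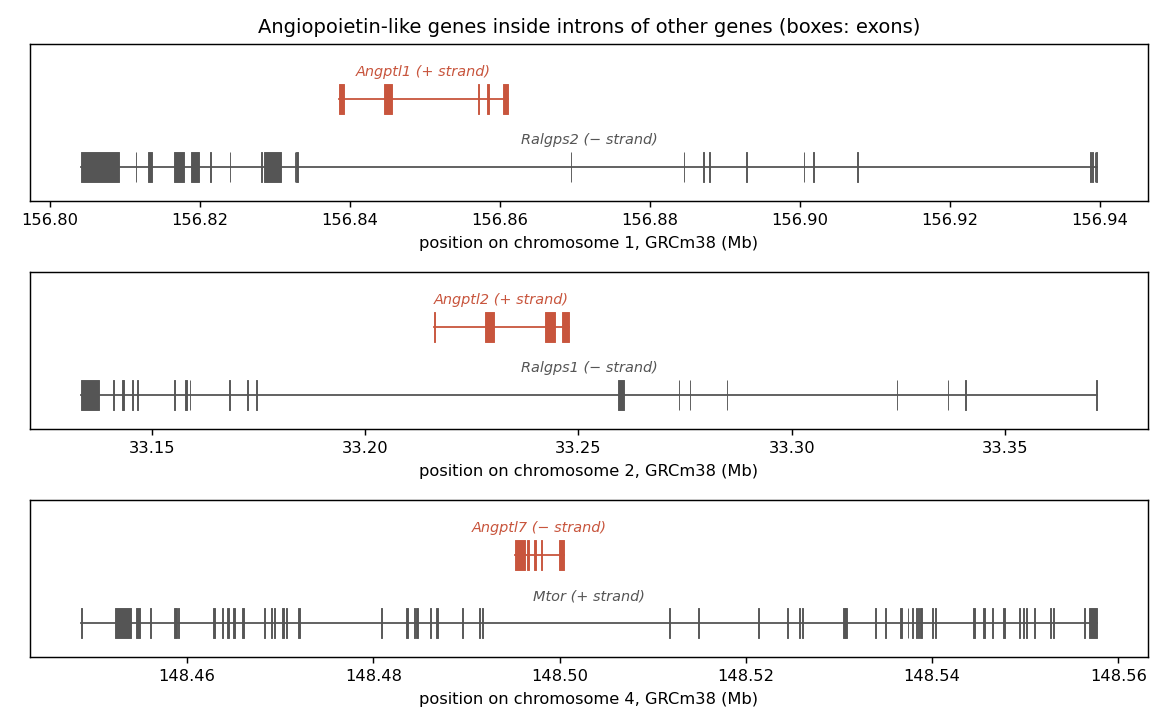
Exons (boxes) of *Angptl1*, *Angptl2* and *Angptl7* (red) and of the genes whose introns hold them (grey), with position on the chromosome in megabases (GRCm38) on the horizontal axis and the strand beside each name. Each angiopoietin-like gene sits in 1 intron of a gene on the opposite strand.

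None of the 3 genes that hold a member was called. *Mtor*, the kinase of the growth-control complex, was at 106.1, 95.9 and 96.9 CPM in WT replicates 1, 3 and 4 and at 100.3, 102.2, 102.7 and 90.9 CPM in A178D replicates 1 to 4. The groups overlapped throughout, and the log2 fold change was -0.01 with a 95% interval from -0.16 to 0.15, beside -1.57 for *Angptl7*. *Ralgps1* and *Ralgps2*, regulators of Ral GTPases, had log2 fold changes of -0.19 (95% interval -0.62 to 0.24) and -0.12 (95% interval -0.35 to 0.12). In the same list, *Dock6*, whose introns hold *Angptl8*, was called lower (log2 fold change -0.34, standard error 0.07, edgeR adjusted p = 0.0315, kept only without WT replicate 1 or A178D replicate 4).

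Promoter windows of 300 bases (250 before to 50 after the start) from RefSeq on GRCm38.p6 were matched for 5 of the 8 genes, *Angptl1*, *Angptl2*, *Angptl7*, *Lmf1* and *Vldlr*. Their letters were searched on both strands for CACGTG, an E-box (7.15% of all 32851 windows have it), AGGTCA, part of a PPAR element (16.3%), TGTTCT, part of a glucocorticoid element (19%), TATAAA, where the TATA-binding protein sits (13.6%), and CATTCC, bound by TEAD factors (14.7%). Of the 6 windows of these genes, only the first of 2 for *Vldlr* (chr19:27216234-27216533) held any of them, TGTTCT at 2 places. The 250 bases before the start are shown for *Angptl2* (chr2:33215711-33215960, plus strand, within an intron of *Ralgps1*) and *Angptl7* (chr4:148500463-148500712, minus strand, within an intron of *Mtor*), the genes whose A178D hearts were all below the WT hearts. Both are written 5′ to 3′ in lower case, with no capitals since none of the motifs is present, and 66.8% of the bases are G or C in *Angptl2* and 54.4% in *Angptl7*.
Angptl2: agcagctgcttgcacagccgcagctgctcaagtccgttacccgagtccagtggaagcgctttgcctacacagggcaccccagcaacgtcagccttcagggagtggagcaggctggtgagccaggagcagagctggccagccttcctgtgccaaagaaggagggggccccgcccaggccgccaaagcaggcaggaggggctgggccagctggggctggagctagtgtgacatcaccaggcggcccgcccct
Angptl7: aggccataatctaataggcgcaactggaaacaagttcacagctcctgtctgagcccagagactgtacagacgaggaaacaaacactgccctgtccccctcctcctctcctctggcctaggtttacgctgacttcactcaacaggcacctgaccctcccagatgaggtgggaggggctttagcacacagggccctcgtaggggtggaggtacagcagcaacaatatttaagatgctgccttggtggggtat

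The heart was the tissue on the labels, and genes of cardiomyocytes were abundant in every library. The summed level of 8 cardiomyocyte markers was 96215 to 102323 CPM in WT and 95059 to 104504 CPM in A178D hearts. Their log2 fold changes had a median of -0.02, and *Actc1* and *Myl2* were highest per length. None of the 8 was called by edgeR, DESeq2 or limma-voom, with 1 higher at an unadjusted p under 0.05. In tissue of many cell types, fewer cells of a type and less RNA per cell cannot be told apart.

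Vessel and perivascular markers are of interest because *Gpihbp1* is made by capillary endothelium and several family members act on vessels. The 11 endothelial markers had a median log2 fold change of 0.03, with *Eng* and *Cdh5* highest per length, and *Flt1*, a VEGF receptor, was called lower (-0.35, standard error 0.07, edgeR adjusted p = 0.02), a call lost without WT replicate 4. The 10 capillary markers had a median of -0.01, with *Cd36* and *Aqp1* highest per length, and *Timp4*, a metalloproteinase inhibitor, was called lower (-0.77, standard error 0.19, edgeR adjusted p = 0.0475). Its groups overlapped, since A178D replicate 4 (34.7 CPM) was above WT replicate 1 (30.7 CPM), and it was called neither by limma-voom nor without WT replicate 4. The endothelial sum was 1473 to 1664 CPM in WT and 1499 to 1567 CPM in A178D hearts. For capillaries it was 3451 to 4030 CPM and 3615 to 4001 CPM, so that the groups overlapped in both. Without *Cd36*, its most abundant gene, the capillary sum was 1372, 1566 and 1557 CPM in WT replicates 1, 3 and 4. In A178D hearts it was 1237 to 1550 CPM, below WT replicates 3 and 4. Without *Kdr*, the most abundant endothelial marker, the endothelial sum was 1271 to 1365 CPM in WT and 1240 to 1314 CPM in A178D hearts.

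Smooth muscle was the marker list with the most calls. All 7 of its genes were below 0 with a median log2 fold change of -0.62, where 6876 of all 13894 genes tested were below 0. By edgeR, DESeq2 and limma-voom alike, 6 were called lower, where edgeR called 1.31% of all genes tested lower. These are genes of the contractile apparatus: *Cnn1* (log2 fold change -0.82, edgeR adjusted p = 0.0337), *Lmod1* (-0.70, 0.0427), *Myh11* (-0.67, 0.0146), *Tagln* (-0.62, 0.0077), *Acta2* (-0.59, 0.00587) and *Mylk* (-0.49, 0.0317). The list sum was 708, 700 and 658 CPM in WT replicates 1, 3 and 4 and 428, 510, 530 and 519 CPM in A178D replicates 1 to 4, with *Acta2* and *Smtn* highest per length and *Smtn* the most abundant. Like *Angptl7* the sum was lower in every A178D heart. In WT replicates 1, 3 and 4 *Angptl7* was at 1.85, 3.52 and 3.89 CPM, beside sums of 708, 700 and 658 CPM. The part of smooth muscle in the value of *Angptl7* was not tested. Without WT replicate 4, 2 of the 7 were called.

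The 7 pericyte markers were all below 0, as were 6876 of all 13894 genes tested, with a median log2 fold change of -0.28. None was called by edgeR or limma-voom, DESeq2 called 3 lower, and 4 were lower at an unadjusted p under 0.05, which 2326 of all 13894 genes passed. Without WT replicate 4, edgeR called 2 lower. Their sum was 1083 to 1134 CPM in WT hearts and 944, 994, 1057 and 823 CPM in A178D replicates 1 to 4, with *Abcc9* and *Rgs5* highest per length. *Abcc9* was at 425.9 CPM in A178D replicate 4 and at 554.9 to 615.6 CPM in the other A178D hearts. Without *Abcc9* the sum was 454.9 to 536.2 CPM in WT hearts and 389.2, 423.7, 441.6 and 397.1 CPM in A178D replicates 1 to 4. The 10 macrophage markers were all above 0, as were 7018 of all 13894 genes tested, with a median of 0.25. *C1qa* and *C1qc* were highest per length. *Cx3cr1*, the fractalkine receptor, was called higher (1.23, standard error 0.19, edgeR adjusted p = 0.0065). DESeq2 called 3 of the 10 markers higher, beside 306 over all genes tested. At an unadjusted p under 0.05, which 2326 of all 13894 genes passed, 4 of the 10 were higher. Their sum was 210 to 274 CPM in WT and 261 to 294 CPM in A178D hearts.

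The 10 fibroblast markers had a median of 0.09, with *Dcn* and *Lum* highest per length. *Col3a1*, a fibrillar collagen, was called higher (0.62, standard error 0.14, edgeR adjusted p = 0.0317). It was at 248.5, 213.2 and 140.6 CPM in WT replicates 1, 3 and 4. DESeq2 called 2 of the 10 higher, beside 306 over all genes tested, and edgeR called 1.04% of all genes tested higher. At an unadjusted p under 0.05, which 2326 of the 13894 genes tested passed, 4 of the 10 were higher. Without WT replicate 4, edgeR called 1 higher. In WT replicate 4, 8 of the 10 markers were at their lowest WT level, as were 4635 of all 13894 genes tested. Their sum was 1165 to 1301 CPM in WT and 1351 to 1496 CPM in A178D hearts. *Angptl7* is known from matrix-rich tissue, and the markers of valve and tendon matrix summed to 42.8, 40.9 and 34.3 CPM in WT replicates 1, 3 and 4 and to 42.1, 43.7, 38.7 and 37.9 CPM in A178D replicates 1 to 4. These sums overlapped between the groups. *Prg4*, the most abundant of the list, was at 15.0, 14.2 and 12.6 CPM in WT and at 9.84, 10.04, 12.5 and 12.4 CPM in A178D hearts, all below the WT hearts as in *Angptl7*. Without *Prg4* the sum was 21.6 to 27.8 CPM in WT and 25.5 to 33.7 CPM in A178D hearts. Of the 10 genes tested, 8 were above 0, and *Comp* was higher in every A178D heart (log2 fold change 0.84, not called). *Comp* was at 2.26, 2.60 and 1.06 CPM in WT replicates 1, 3 and 4 and at 3.335 to 3.832 CPM in A178D hearts. In WT replicate 4, 7 of the 10 were at their lowest WT level. The part of this tissue in the value of *Angptl7* was not tested. Of the 10 tested among 12, none was called by edgeR or limma-voom, DESeq2 called 1 higher, 1 was higher and 1 lower at an unadjusted p under 0.05, and the median was 0.27. *Cytl1* and *Prg4* were highest per length, and *Tnmd* and *Hapln1* did not pass the filter.

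Adipocytes make both lipoprotein lipase and *Angptl4*, and their markers were checked for fat around the vessels. The list summed to 281.1, 281.1 and 379.4 CPM in WT replicates 1, 3 and 4 and to 251 to 269 CPM in A178D hearts, of which *Plin4* made up most. Without *Plin4* the sum was 14.17, 12.25 and 13.59 CPM in WT replicates 1, 3 and 4 and 10.9 to 14.85 CPM in A178D hearts, so that the groups overlapped. *Plin4* was at 365.8 CPM in WT replicate 4, at 266.9 and 268.9 CPM in WT replicates 1 and 3 and at 237 to 257 CPM in A178D hearts, all below the WT hearts. The markers that define adipocytes were near 0, with *Adipoq* at 0.02 to 0.44 CPM, *Plin1* at 0.08 to 0.46 CPM, *Lep* at 0 in 5 of the 7 hearts and highest in WT replicate 4, and *Ucp1* at 0 in all hearts but WT replicate 1. WT replicate 4 was the highest WT heart in 4 of the 6 tested markers (66.7%, against 33.5% of all genes tested), *Adipoq* among them with 18 counts, and the part of adipocytes in the value of *Angptl4* was not tested. Of the 6 tested, none was called by edgeR, DESeq2 or limma-voom, 1 was lower at an unadjusted p under 0.05, and the median was -0.25, with *Plin4* and *Pparg* highest per length.

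Of the remaining lists, the epicardial layer had 2 of 7 genes tested, *Aldh1a2* and *Wt1*, with sums of 7.21 to 11 CPM in WT and 8.05 to 10.6 CPM in A178D hearts. The erythrocyte markers, led by *Hba-a2* and *Hbb-bs*, summed to 106 to 114 CPM and 93.9 to 154 CPM. No gene of these lists was called by edgeR, DESeq2 or limma-voom, and 0 had an unadjusted p under 0.05. Their medians were 0.04 and 0.15, in 2 and 4 genes tested.

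The patterns of single genes over the 7 hearts give the company each member kept, as a description over hearts that share the difference between genotypes. For *Angptl7* the most similar genes were *Xpo6*, *Slc4a8* and *Tmem164* (Pearson r = 0.99, 0.99 and 0.98 of log2 CPM, n = 7), of which *Slc4a8*, a bicarbonate transporter, and *Tmem164* were called lower (log2 fold changes -0.73 and -0.90, edgeR adjusted p = 0.0466 and 0.00564). Besides *Ucp3*, *Rragb* and *Tigd2* were most like *Angptl4* (r = 0.98 and 0.97). *Art5*, *Cryz* and *Mthfd1l* were most like *Angptl1* (each r = 0.98), and *Kcna5*, *Tmem35a* and *Sdf4* most like *Angptl2* (r = 0.99, 0.98 and 0.98).

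*Sharpin*, *Snw1* and *Herpud1* were most like *Lpl* (each r = 0.97), and *Herpud1*, a gene of protein disposal in the endoplasmic reticulum, was itself called lower (log2 fold change -0.52, edgeR adjusted p = 0.0494). *Cnot10*, *Cldn15* and *Dhrs7c* were most like *Gpihbp1* (r = 0.98, 0.97 and 0.97), *Cfap126*, *Serpina3n* and *Hsp90ab1* most like *Lmf1* (r = 0.99, 0.98 and 0.98), and *Rnf11*, *Npat* and *Fv1* most like *Vldlr* (r = 0.98, 0.97 and 0.97). With 7 hearts and 12211 genes compared, high values of r arise for every member.

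Among the members themselves, *Angptl1* varied over the 7 hearts with *Angptl7* and with *Lpl* (Pearson r = 0.90 for both, and 0.77 and 0.85 after the genotype means were removed). *Angptl7* and *Lpl* had r = 0.80 (0.73 within genotypes), and *Lpl* and *Gpihbp1* had r = 0.721 (0.745 within genotypes). *Angptl4* and *Lpl* had r = -0.10 over all hearts and 0.58 within genotypes, so that the sign depended on whether the genotype means were removed. It also turned for *Angptl4* with *Angptl7* (-0.50 and 0.43), *Angptl1* (-0.36 and 0.38) and *Gpihbp1* (-0.12 and 0.06). For *Lmf1* the sign turned with *Angptl1* (-0.42 and 0.60), *Angptl2* (-0.305 and 0.807), *Angptl4* (0.51 and -0.29), *Angptl7* (-0.64 and 0.44) and *Lpl* (-0.25 and 0.59). *Angptl7* and *Vldlr* had 0.03 and -0.13. *Gpihbp1* and *Lmf1* had 0.225 and 0.819. The most negative pair was *Angptl2* and *Angptl4* over all hearts (r = -0.78) and *Lmf1* and *Vldlr* within genotypes (r = -0.88), followed there by *Angptl2* and *Vldlr* (r = -0.83). WT replicate 1 was the lowest and WT replicate 4 the highest of the WT hearts in 5 of the 8 genes, *Angptl1*, *Angptl4*, *Angptl7*, *Lpl* and *Gpihbp1*. Over all 13894 genes tested, WT replicate 1 was the lowest WT heart in 4944 and WT replicate 4 the highest in 4658. These were counted separately, and the share of genes with both was not computed.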

How the data were processed

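Poly(A) RNA of 7 left ventricles was sequenced from stranded libraries with paired ends. The authors deposited raw counts per gene, without normalization, and a second table of counts scaled with DESeq2, which was not used here. The submitters' processing notes name bcl2fastq 2.18.0.12, HISAT2 2.1.0, SAMtools 1.6, DESeq2 1.26.0 and GRCm38; the counting program and its strand setting are not given in the sources used here. Ensembl identifiers were matched to GENCODE M21 (GRCm38), with 268 of 21257 entries unnamed. Of 442 entries in 219 sets with shared counts (at least 30 counts), 1 per set was kept. Removing these and repeated identifiers with the same counts took out 330 entries. None of the 13 mitochondrial genes had counts.

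A178D was compared with WT in edgeR 4.0.16 under R 4.3.3 (TMM, glmQLFit and glmQLFTest, no covariate, at least 10 counts in at least 3 libraries, Benjamini-Hochberg over 13894 genes), and intervals are 95% intervals of the model. Log2 CPM for correlations had a prior count of 2. Levels per length used exon unions. A fixed rule named every member, the called genes of each list (all, as no list had more than 6), the 2 genes of each list highest per length, the 3 genes most like each member, the genes that hold a member in an intron and the neighbours in rank. *Ttn*, *Ddx3y*, family members outside the 8, and single genes near 0 or prominent in a list sum are named besides. Members and the 21 lists (9 of pathways, 12 of cell type markers) were chosen with earlier results of these data known. The pathway lists are lipolysis partners, lipoprotein receptors, fatty acid handling after lipolysis, PPAR targets, PPAR and glucocorticoid receptors, glucocorticoid response, hypoxia response, angiopoietins and receptors, and host genes. The markers are of endothelium, capillary endothelium, adipocytes, fibroblasts, valve and tendon matrix, epicardial layer, smooth muscle, pericytes, macrophages, cardiomyocytes, erythrocytes and Schwann cells. The Schwann cell list and some single genes that the rule names are not reported here.

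Alternatives were DESeq2 1.42.0, limma-voom 3.58.1, DESeq2 size factors, other filters and thresholds, the table as deposited, halved counts, offsets for length and GC content (mgcv 1.9.3), a replicate block and each library left out. The fit was also run on simulated data, and no result of that run is reported or relied on here. Values rest on 3 and 4 hearts, and counting error is largest for *Angptl7*.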

Additional observations from a re-analysis of the deposited data

Results flagged for a closer look

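In each of 32 genes (the 8 members and the called genes of the lists), the 4 A178D hearts were examined for a single distant value with the Dixon ratio (gap over range). In *Col3a1*, a fibroblast marker, A178D replicate 2 stood apart at 323.8 CPM, where the other A178D hearts were at 302.9 to 305.8 CPM (ratio 0.864). The chance rate of such a finding is about 1 in 20 genes, and 1 of 32 was found. WT hearts were not examined this way, since there are 3 of them.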

How the results depend on the processing

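Of the 8 genes, *Angptl7* was lower in every setting tried and called in 9 of 10 settings that kept all hearts (log2 fold change -1.63 to -1.49); at an adjusted p under 0.01, 0 members were called lower. Limma-voom called 1 member higher, *Angptl4*. DESeq2 called 306 genes higher and 380 lower in all, and in the pathway lists 10 higher and 10 lower (8 higher and 6 lower in edgeR). At an adjusted p under 0.01, 24 genes were higher and 40 lower, with 2 and 2 in the pathway lists. With each heart left out in turn, 22 to 215 genes were higher and 31 to 238 lower, 0 to 1 members higher and 0 to 1 lower, and 2 to 8 genes of the pathway lists higher and 2 to 12 lower. The lowest counts over all genes came without WT replicate 3, and the fits without WT replicate 4 and without A178D replicate 1 also gave under 1 in 2 of the main calls; the cause was not tested. With the replicate block, 124 genes were called higher and 147 lower, 1 member lower and 0 higher. The numbers did not pair the hearts: deviations of hearts with the same number had r = 0.003, -0.04 and -0.04, and 0 of 3 WT hearts correlated best with their own number. No scaling moved the median of all genes by more than 0.01. Per length of the longest transcript, levels in WT were 1307 for *Lpl*, 75.0 for *Vldlr*, 49.4 for *Gpihbp1*, 46.4 for *Angptl2* and 7.96 for *Lmf1*. Depth limits *Angptl7* most, with 28 counts in the shallowest library.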
